A study of Mus musculus with 2 samples.

Results

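Checkpoint-low CD8 T cells were the T cells with CD8 transcripts and little RNA for the inhibitory and costimulatory receptors that mark repeated stimulation, taken from the immune cells of a mouse melanoma. A barcode was a member with at least 1000 gene UMIs (unique molecular identifiers, each counting 1 captured RNA molecule), at least 500 genes and at most 10% mitochondrial UMIs. It also needed at least 3 UMIs of Cd3d, Cd3e and Cd3g, at least 2 of Cd8a and Cd8b1, no Cd4 or Foxp3, and under 1000 CPM of C1qa, C1qb and C1qc. Pdcd1, Havcr2, Lag3 and Tnfrsf9 together had to stay under 500 CPM (UMIs per 1000000 gene UMIs of the cell). The members were thus chosen by measured levels of these genes, which gave 126 of 4236 cells, or 2.97% (95% exact binomial interval 2.48 to 3.53%), and 93 other CD8 T cells at 500 CPM or more formed the checkpoint-high set.

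Naive and quiescent T cells keep the transcription factors Tcf7 and Lef1, the chemokine receptor Ccr7, and the egress receptor S1pr1, which is controlled by Klf2. Memory T cells rely on Il7r and Il2rb for the survival cytokines IL-7 and IL-15, and in mice many central and effector memory cells carry Ly6c. Bystander T cells enter a tumour without recognising it and are known to respond through innate-like receptors and cytokines, with little sign of signalling by the antigen receptor.

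The cells came from a B78ChOVA melanoma, a mouse tumour line injected under the skin of the flank in Matrigel and collected at 16 days; strain, sex and age are not given in the labels. Living slices were marked by ZipSeq, which puts light-released DNA barcodes on cells of chosen areas before the tissue is taken apart, and sorted immune cells were run on 10x Genomics droplets. The samples were 1 gene expression library and 1 spatial barcode library of the same cells, so there was no replicate and no test, and no comparison below has a p-value. Ranges given after a ratio or share are its 95% interval, for counting error alone.

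Checkpoint-low cells held 2078 to 109328 gene UMIs, the median cell having 6152 UMIs from 1973 genes, 4.45% of them mitochondrial. The median checkpoint-high cell held 12571 UMIs from 3173 genes, 3.48% of them mitochondrial. Of the 126 cells, 69 had no UMI of the 4 checkpoint genes, 27 had 1 and 30 had 2 or more, up to 39 in a deep cell. The members nearest the limit had 490.2, 486.4 and 481.2 CPM and the nearest cells outside it 507.0, 510.3 and 536.1 CPM. Within 100 CPM of the limit lay 8 cells below it and 13 above it, so the set is a range cut from a continuous value. No 2 members shared a barcode.

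Markers of other cell types were high in some members. In 13 of 126 cells, which held 22.9% of the UMIs, Cd74 (the invariant chain of MHC class II) reached 11941 to 23789 CPM, against a median of 158 CPM in the other 113. The highest of the 113 was the deepest cell, of 109328 UMIs, at 3357 CPM, and the next had 928 CPM. The same 13 cells had 265 to 1694 CPM of the CD3 genes, against 1111 to 7246 CPM in the rest, and a summed level of macrophage and monocyte markers of 12339 CPM, against 581 CPM. Their dendritic cell markers summed to 23111 CPM and to 743 CPM in the other 113, a list that holds Cd74 and H2-Ab1. Cd74 was at or above 5000 CPM in 2 of 93 checkpoint-high, 8 of 82 CD4 and 1 of 58 NK cells. Because of these cells, levels below are for the 113 checkpoint-low and 91 checkpoint-high cells under 5000 CPM of Cd74 unless all cells are named. List medians are given both ways or with their set of cells named. Of 162 list genes compared both ways, the ratio of 10 moved by over 1.5 times, among them Tyrobp at 2.82 over all cells and 0.539 without, Fcer1g at 3.35 and 0.880, and Ccr7 at 1.64 and 0.883. In the 113 cells the CD8 identity genes summed to 8992 CPM (lowest cell 4520, median 10315, highest 19622), against 10796 CPM in the 91 checkpoint-high cells. Cd8a, Cd8b1, Cd3d, Cd3e and Cd3g of that list chose the cells, so its level is no result. The NK markers, a list that also holds Gzma, Eomes, Fcer1g and Tyrobp, had UMIs for 7 of 11 genes and summed to 394 CPM in the 113 cells (lowest cell 0, median 204, highest 12869), against 307 CPM in the 91 checkpoint-high cells, with Ncr1, Klra4, Klra8 and Klri2 at 0 in the 113. Melanoma markers summed to 5.23 CPM, B cell markers to 48.0 CPM and gamma delta T markers to 97.7 CPM (median cell 0, highest 822). The Tcrg constant genes of the gamma delta list had 17 UMIs in the deepest cell, 16 in a cell of 22639 UMIs and 10 in a cell of 19453 UMIs.

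Reporter and sex-linked RNA was uneven between the sets. The reporter dsRed, present as a feature in the deposited matrix, had UMIs in 7 of 126 checkpoint-low cells (5.56%, 2.26 to 11.1%), against 32 of 93 checkpoint-high cells (34.4%, 24.9 to 45.0%). Xist, the RNA that coats the inactive X chromosome of female cells, was found in 6 checkpoint-low cells and 32 checkpoint-high cells. No CD4 or NK cell had either RNA, and of 2265 C1q macrophages 6 had dsRed and 5 had Xist. Transcripts of the Y chromosome were found in 89 of 126 checkpoint-low and 57 of 93 checkpoint-high cells. Xist without any Y transcript occurred in 34 cells of the whole library, of which 5 were checkpoint-low and 29 checkpoint-high. After each cell was thinned to 1000 random UMIs, so that depth was equal, Xist was found in 3 checkpoint-low cells (2.38%) and 16 checkpoint-high cells (17.2%), and dsRed in 2 (1.59%) and 3 (3.23%). The share in checkpoint-low cells moved with the limit that chose them, from 0.943% of 106 cells at 250 CPM to 11.4% of 158 cells at 1000 CPM. The labels name no transferred cells, and what these RNAs mark was not tested.

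**Figure D1:**
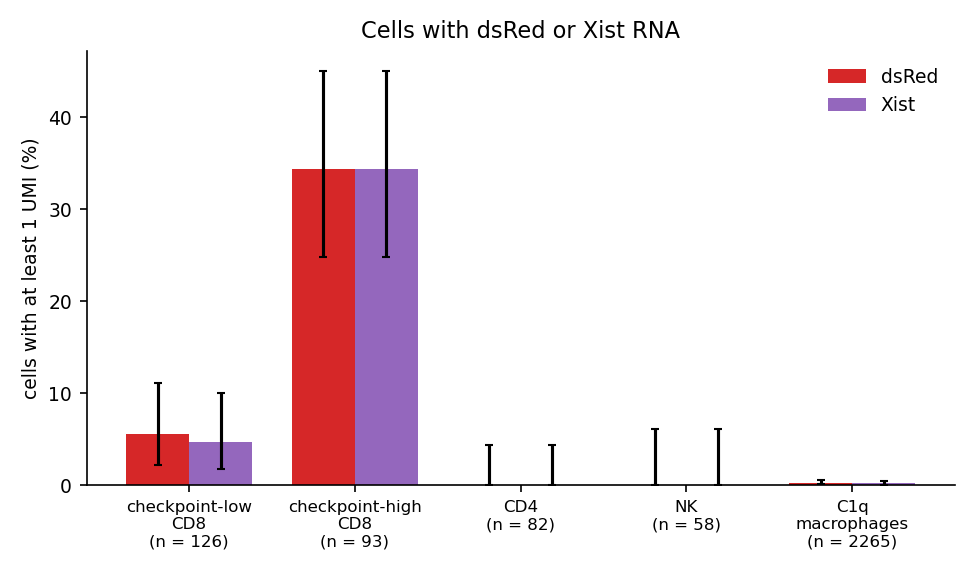
Bars give the percentage of cells with at least 1 UMI of dsRed (red) or Xist (purple) in each set of cells of the library, and lines the exact 95% binomial intervals. Both bars stand at 34.4% in checkpoint-high cells and at 0 in CD4 and NK cells, and the checkpoint-low bars at 5.56% and 4.76%.

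The naive and quiescence genes stood higher in checkpoint-low than in checkpoint-high cells. Of 16 listed genes, 10 had enough UMIs to compare over all cells, with a median ratio of 3.81, beside 0.999 for all 7329 genes compared. Of these 10, 6 were past 2-fold higher and 1 past 2-fold lower, where 5.44% of all genes were past 2-fold higher and 3.1% lower. Without the Cd74 cells the median ratio was 4.08, with 6 past 2-fold higher and 2 lower, beside 2.6% and 4.35% of 6799 genes. The rule cut this same contrast, so these counts describe the sets and support nothing.

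Tcf7, the transcription factor of naive and stem-like T cells, had 80.2 CPM in checkpoint-low cells (49 of 113 with a UMI, highest cell 711 CPM), against 16.6 CPM in checkpoint-high cells (11 of 91), a ratio of 4.83 (3.08 to 7.85). Its partner Lef1 had 33.1 CPM against 6.64 CPM, a ratio of 4.99 (2.44 to 11.2). Il7r, the IL-7 receptor alpha chain, showed the widest gap, at 88.1 CPM (42 cells, highest cell 1109 CPM) against 7.97 CPM (7 cells), a ratio of 11.1 (6.06 to 22.1). The median cell was at 0 for each of these genes in both sets, and at this depth the number of cells with a UMI is not the number that express a gene. In GRCm38.p6, the mm10 assembly, RefSeq places Tcf7 at chr11:52246527-52283383 and Il7r at chr15:9506159-9529941.

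S1pr1, the receptor by which T cells leave tissue, had 54.9 CPM in checkpoint-low cells (37 cells) and 8.63 CPM in checkpoint-high cells (9 cells), a ratio of 6.36 (3.47 to 12.6). Klf2, the factor that switches on S1pr1, had 102 CPM against 12.6 CPM, a ratio of 8.09 (4.95 to 13.9). Klf2 is also a gene of the surrounding free RNA, at 231 CPM in barcodes of 10 to 100 UMIs, and of C1q macrophages, at 201 CPM. Foxp1, a keeper of quiescence, had 84.6 CPM against 24.6 CPM, a ratio of 3.44 (2.33 to 5.17).

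Not every gene of the list followed. Ccr7, a chemokine receptor of naive and central memory cells, had 34.0 CPM in checkpoint-low cells and 38.5 CPM in checkpoint-high cells, a ratio of 0.883 (0.573 to 1.35). Dapl1 had 29.7 CPM in 10 cells against 84.3 CPM in 12 cells, and Actn1 had 13.1 CPM against 52.5 CPM, a ratio of 0.249 (0.133 to 0.437). For Dapl1 the direction over all cells, Cd74 cells kept in, depended on the dsRed or Xist cells, since its log2 ratio was 1.03 without them. Thinned to 1000 UMIs, Il7r was found in 12.4% of checkpoint-low cells, 1.10% of checkpoint-high cells and 1.81% of C1q macrophages. Tcf7 was found in 8.85% (4.33 to 15.7%), 3.30% (0.685 to 9.33%) and 0% of the same sets. S1pr1 was found in 7.96% (3.71 to 14.6%), 3.30% (0.685 to 9.33%) and 0.132%. For Tcf7 and S1pr1 the checkpoint-low and checkpoint-high intervals thus overlapped.

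The memory genes were also higher, by less. Over all cells 14 of 16 listed genes were compared, with a median ratio of 1.42, 5 past 2-fold higher and 2 past 2-fold lower. The median was 1.43 without the Cd74 cells, with 5 higher and 1 lower. Of all genes, 5.44% were past 2-fold higher and 3.1% lower, or 2.6% and 4.35% without the Cd74 cells. Ly6c2, the Ly6C surface protein of mouse memory cells and monocytes, had 901 CPM in checkpoint-low cells (lowest cell 0, median 1048, highest 5271), against 283 CPM in checkpoint-high cells (median 57.4, highest 5190), a ratio of 3.18 (2.84 to 3.57). The cells of the sets overlapped, but 87 of 113 checkpoint-low and 51 of 91 checkpoint-high cells had Ly6c2. At 1000 UMIs it was found in 56.6% of checkpoint-low and 19.8% of checkpoint-high cells, beside 3.93% of C1q macrophages. The gene lies at chr15:75108161-75112066 in GRCm38.p6, and its near-identical neighbour Ly6c1 had no UMI in either set.

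Gzmk, a granzyme of memory and pre-exhausted CD8 T cells, had 349 CPM in 70 of the 113 checkpoint-low cells (median cell 177, highest 2253), against 104 CPM in 43 of 91 checkpoint-high cells, a ratio of 3.35 (2.77 to 4.05). Cxcr3, the receptor for interferon-induced chemokines, had 127 CPM against 47.1 CPM, a ratio of 2.70 (2.02 to 3.64), and 66 of 113 against 36 of 91 cells had it. Thinned to 1000 UMIs, the shares overlapped for both genes. Gzmk was found in 21.2% (14.1 to 29.9%) against 12.1% (6.19 to 20.6%), and Cxcr3 in 12.4% (6.94 to 19.9%) against 5.49% (1.81 to 12.4%). The survival factor Bcl2 had 67.1 CPM against 36.5 CPM, a ratio of 1.84 (1.28 to 2.65). Eomes, a T-box factor of memory cells, had 81.1 CPM against 59.8 CPM, with an interval of the ratio of 1.00 to 1.83. Slamf6 and Cd44 had intervals that held 1, at 0.928 to 1.99 and 0.667 to 1.30.

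The IL-15 receptor parts of the list pointed the other way. Il2rb, the shared beta chain for IL-2 and IL-15, had 223 CPM in checkpoint-low cells (median cell 164) and 427 CPM in checkpoint-high cells (median cell 371), a ratio of 0.523 (0.451 to 0.605). Il15ra, which presents IL-15, had 15.7 CPM against 33.9 CPM, a ratio of 0.463 (0.255 to 0.807). Cd27, a costimulatory receptor, had 133 CPM against 219 CPM, a ratio of 0.609 (0.499 to 0.740). Il7r stands in both the naive and the memory list, and Il2rb and Il15ra in both the memory and the bystander list.

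**Figure D2:**
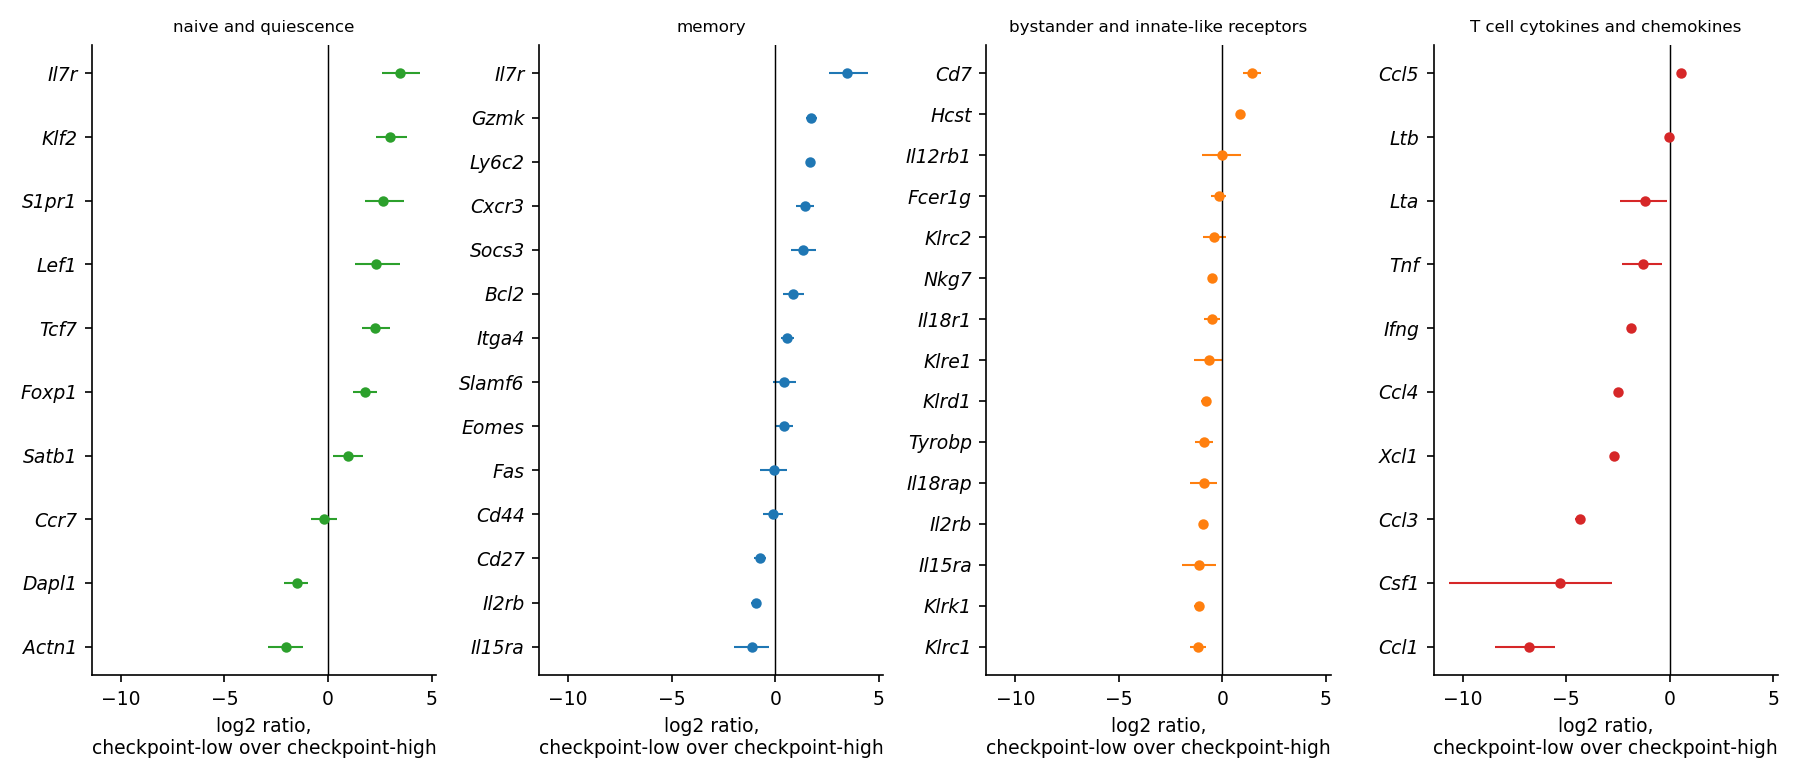
Points give the log2 ratio of checkpoint-low over checkpoint-high CD8 T cells without the Cd74 cells, for each gene compared of 4 lists, and lines the exact 95% intervals of counting error. Most naive genes lie right of 0, with Il7r the farthest, most memory genes lie right of it by less, and most cytokine genes lie left of it, with Ccl1 and Csf1 the farthest.

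Homing and residency genes were mixed. Of 20 homing receptors and integrins, 16 were compared without the Cd74 cells, with a median ratio of 1.35, 5 past 2-fold higher and 1 lower. Of all genes, 2.6% were higher and 4.35% lower. Itgb7, the beta chain of integrins that bind gut and vessel ligands, had 201 CPM in checkpoint-low cells (median cell 202) and 31.9 CPM in checkpoint-high cells (median cell 0), a ratio of 6.29 (4.59 to 8.78). Gpr183, an oxysterol receptor that guides T cells in lymphoid tissue, had 164 CPM against 30.5 CPM, a ratio of 5.37. Cxcr6, a receptor of tissue-resident and tumour T cells, had 249 CPM (median cell 162) against 526 CPM (median cell 474), a ratio of 0.474 (0.413 to 0.544). The residency markers Cd69 and Itga1 were higher, at ratios of 2.06 (1.64 to 2.60) and 2.74 (1.65 to 4.65). Itgae, the alpha chain of the CD103 integrin, was found in 6 cells only, and Zfp683, a factor of resident memory cells, in none of the 113.

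The circulating effector memory list had a median ratio of 1.44 over all cells and 0.940 without the Cd74 cells. Klrg1, a receptor of short-lived effector cells, was found in 9 of 113 checkpoint-low and 7 of 91 checkpoint-high cells, and S1pr5, an egress receptor of such cells, in 1 and 0. Other genes among the highest ratios over all genes were St3gal6, a sialyltransferase, at 5.60 and Zfp36l2, an RNA-binding repressor of translation, at 405 CPM against 110 CPM, a ratio of 3.70.

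The bystander and innate-like receptors were mostly lower. Over all cells 15 of 21 listed genes were compared, with a median ratio of 0.602, 3 past 2-fold higher and 5 lower. Without the Cd74 cells the median was 0.632, with 1 higher and 3 lower. Of all genes, 5.44% were past 2-fold higher and 3.1% lower, or 2.6% and 4.35% without the Cd74 cells. Klrk1, the stress-ligand receptor NKG2D, had 175 CPM in checkpoint-low cells (54 of 113 with a UMI) and 389 CPM in checkpoint-high cells (77 of 91), a ratio of 0.450 (0.382 to 0.530). Klrd1, the CD94 chain, had 208 CPM against 365 CPM, a ratio of 0.571 (0.488 to 0.665), and its inhibitory partner Klrc1 had 69.8 CPM against 157 CPM, a ratio of 0.443 (0.340 to 0.573). Nkg7, a cytotoxic granule protein, had UMIs in 112 of 113 checkpoint-low cells and in all 91 checkpoint-high cells, at 2161 CPM against 3023 CPM.

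The receptors of the bystander-activating cytokine IL-18 were lower too. Il18r1 had 72.4 CPM in 43 checkpoint-low cells and 102 CPM in 58 checkpoint-high cells, a ratio of 0.708 (0.535 to 0.930), and Il18rap had a ratio of 0.536 (0.336 to 0.837). The difference in Il18r1 rested on dividing and dsRed or Xist cells, because its ratio was 1.32 (0.928 to 1.87) in 97 checkpoint-low against 52 checkpoint-high cells without those and the Cd74 cells. Thinned to 1000 UMIs, Klrk1 was found in 23.9% (16.4 to 32.8%) of checkpoint-low and 28.6% (19.6 to 39.0%) of checkpoint-high cells, and Klrd1 in 23.9% and 29.7%, so those shares overlap.

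A pair of genes of the list went the other way. Cd7, a surface molecule of T and NK cells, had 113 CPM in checkpoint-low cells and 42.5 CPM in checkpoint-high cells, a ratio of 2.67 (1.96 to 3.66). Hcst, the adaptor DAP10 through which NKG2D signals, had UMIs in 110 of 113 checkpoint-low cells (median cell 817 CPM, highest 2567) and in 90 of 91 checkpoint-high cells (median cell 289 CPM), at 548 CPM against 307 CPM and a ratio of 1.78 (1.58 to 2.01). Receptors of the Ly49 family were rare. Klra7 was found in 3 checkpoint-low cells, Klra9 in 2 cells, and neither in any checkpoint-high cell. The cell highest in Klra7, at 2271 CPM, was also the highest in Gzma and in the summed NK markers, whose part was not tested.

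The cytotoxic list split by member, with a median ratio of 1.25 over all cells and 1.10 without the Cd74 cells. Gzma, a granzyme of bystander and circulating effector cells, had 144 CPM in checkpoint-low cells and 19.9 CPM in checkpoint-high cells, a ratio of 7.22 (4.87 to 11.0). It was found in only 16 of 113 cells, and a single cell held 30.9% of its UMIs. The highest cells had 9841 and 8285 CPM of Gzma, and the next had 1459 CPM. That highest pair also had 12869 and 9747 CPM of NK markers, Gzma included, and the part of both cells together in the ratio was not tested. Gzmb, the main killing granzyme, had 657 CPM in 46 cells against 1223 CPM in 62 cells, a ratio of 0.537 (0.493 to 0.585), and 1 deep checkpoint-low cell held 35.1% of its UMIs. Prf1, which forms the pore for granzymes, had 113 CPM against 646 CPM, a ratio of 0.175 (0.145 to 0.211), and Gzmc had 2.62 CPM in 3 cells against 73.0 CPM in 11 cells. Ctsw, a protease of killer cells, had 446 CPM against 313 CPM, a ratio of 1.42 (1.25 to 1.61).

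Most T cell cytokines and chemokines were far lower. Over all cells 10 of 12 listed genes were compared, with a median ratio of 0.189 and 8 past 2-fold lower. The median was 0.223 without the Cd74 cells, again with 8 lower. Of all genes, 3.1% were past 2-fold lower, or 4.35% without the Cd74 cells. Ccl3, a chemokine of stimulated T cells, had 117 CPM in 28 checkpoint-low cells (highest cell 1343) and 2357 CPM in 68 checkpoint-high cells (highest cell 25958), a ratio of 0.0496 (0.0414 to 0.0589). Xcl1, which draws cross-presenting dendritic cells, had 236 CPM against 1508 CPM, a ratio of 0.157 (0.138 to 0.178), with 36.5% of the checkpoint-low UMIs in 1 cell. Ifng had 163 CPM in 53 cells against 585 CPM in 74 cells, a ratio of 0.279 (0.237 to 0.327). Ccl1 was found in 1 checkpoint-low cell and in 16 checkpoint-high cells, and Csf1 in 1 and 33.

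Ccl5, a chemokine that memory CD8 T cells hold ready, was the exception and had UMIs in 110 of 113 checkpoint-low cells. The gene lies at chr11:83525778-83530518 in GRCm38.p6. Its level was 6096 CPM in checkpoint-low cells (lowest cell 0, median 9038, highest 37567) and 4149 CPM in checkpoint-high cells (median 3136, highest 62035), a ratio of 1.47 (1.42 to 1.52). With the Cd74 cells kept in, the log2 ratio was -0.19 without the dsRed or Xist cells. Its sign did not turn when Cd74, dsRed or Xist and dividing cells were all left out.

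**Figure D3:**
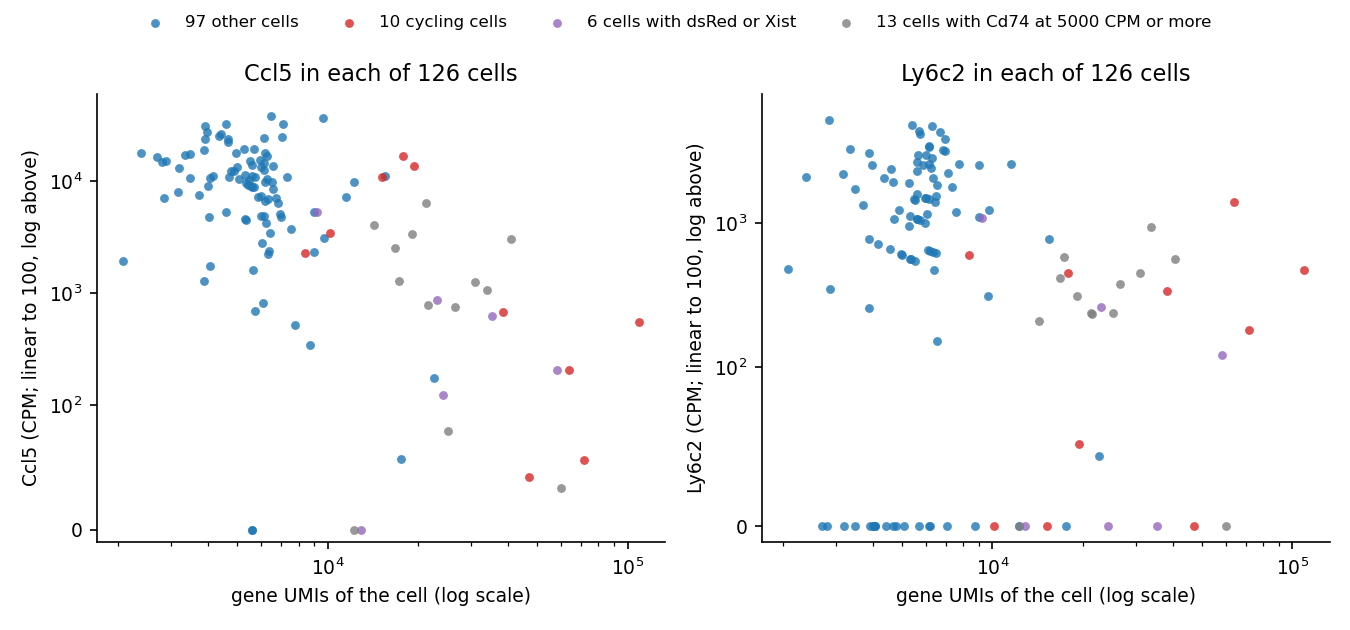
Each point is 1 of 126 checkpoint-low cells, placed by its gene UMIs (log axis) and its CPM of Ccl5 (left) or Ly6c2 (right), on axes that are linear to 100 CPM and logarithmic above. The 97 other cells lie mostly to the left, at low UMIs, with high values of both genes, while dividing, dsRed or Xist, and Cd74 cells lie to the right and mostly lower.

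Genes of exhaustion and of the antigen receptor response had medians under 1. The exhaustion list without the checkpoint genes of the rule had a median ratio of 0.530 over all cells, with 6 of 14 past 2-fold lower and none past 2-fold higher, and 0.589 without the Cd74 cells, with 3 lower. The antigen receptor response list had a median of 0.670 over all cells, with 6 of 14 past 2-fold lower and none higher, and 0.564 without the Cd74 cells, with 5 of 12 lower and 1 higher. Beside both lists, 3.1% of all genes were past 2-fold lower and 5.44% higher, or 4.35% and 2.6% without the Cd74 cells. Tox, the factor that fixes the exhausted state, had 114 CPM in 45 checkpoint-low cells and 184 CPM in 73 checkpoint-high cells, a ratio of 0.621 (0.501 to 0.767). Rgs16, a regulator of G protein signalling, had 48.8 CPM in 16 cells against 171 CPM in 61 cells, a ratio of 0.285 (0.210 to 0.382). Nr4a2, induced by the antigen receptor, had a ratio of 0.428 (0.340 to 0.535), and Tnfrsf4, the costimulatory receptor OX40, had 46.2 CPM in 8 cells against 292 CPM in 57 cells, a ratio of 0.159 (0.117 to 0.211). Tox and Ctla4 were thus still found in 45 and 47 of the 113 checkpoint-low cells.

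Type I interferon genes had a median ratio of 1.36 over all cells, with 8 of 29 past 2-fold higher and none past 2-fold lower, and of 1.29 without the Cd74 cells, with 6 of 26 higher. Of all genes, 5.44% were past 2-fold higher and 3.1% lower, or 2.6% and 4.35% without the Cd74 cells. Ifit1, which blocks translation of foreign RNA, had 54.9 CPM in 20 checkpoint-low cells (highest cell 2728) and 23.2 CPM in 11 checkpoint-high cells, a ratio of 2.36 (1.54 to 3.68). Ifit3, its partner, had 69.8 CPM against 21.9 CPM, a ratio of 3.18 (2.10 to 4.93). Isg15, a ubiquitin-like protein, had an interval of 0.611 to 1.15. These genes are also in the free RNA, at 43.2 CPM for Ifit1 and 76.0 CPM for Ifit3, whose part in the difference was not tested.

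Interferon-stimulated genes share an element of GAAA, 2 bases of any kind and GAAA again, and it was looked for on both strands of the 250 bases before and 50 bases after each gene start in RefSeq (GRCm38.p6). It was in 16 of 26 promoters matched from the 34 type I interferon genes (61.5%) and in 7 of 11 from the 14 interferon gamma genes (63.6%), beside 943 of 27025 promoters in all (3.49%). None of 12 promoters of the naive list and 1 of 15 of the memory list held it. The shorter element CACCC, bound by Klf factors, was in 8 of 12 naive promoters (66.7%) and 15333 of 27025 in all (56.7%). The promoters of Ifit1, the gene above, and of Igtp, which separates interferon-high cells below, are shown for the element, in capitals, in the 250 bases before each start. Ifit1 lies on the plus strand at chr19:34640639-34640888, with matches that start 104 and 85 bases before the gene, and Igtp on the plus strand at chr11:58199306-58199555, with 1 match 34 bases before it. Both windows lie outside the annotated gene.
Ifit1: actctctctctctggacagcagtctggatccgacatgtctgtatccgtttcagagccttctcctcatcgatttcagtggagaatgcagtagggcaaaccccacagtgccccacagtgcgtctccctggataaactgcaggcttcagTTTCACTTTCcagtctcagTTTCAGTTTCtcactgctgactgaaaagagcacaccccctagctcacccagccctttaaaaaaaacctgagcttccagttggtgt
Igtp: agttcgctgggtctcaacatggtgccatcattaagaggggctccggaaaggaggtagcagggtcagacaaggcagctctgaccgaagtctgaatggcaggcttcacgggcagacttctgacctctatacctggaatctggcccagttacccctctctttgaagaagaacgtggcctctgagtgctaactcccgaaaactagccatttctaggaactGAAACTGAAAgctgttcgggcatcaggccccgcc
The matches describe these letters and show no binding.

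Checkpoint-low cells were split at 3 UMIs of the type I interferon list after thinning to 1000 UMIs, which gave 61 interferon-high and 65 interferon-low cells. The list itself chose the cells and is no result. The interferon gamma genes had a median ratio of 1.5, with 3 of 12 past 2-fold higher where 3.78% of 5419 genes were, and 1.24 without the Cd74 cells, again with 3 of 12, beside 2.72% of 4456 genes. Igtp, a GTPase that disrupts vacuoles of pathogens, had 160 CPM in interferon-high and 50.8 CPM in interferon-low cells without the Cd74 cells, a ratio of 3.15 (2.08 to 4.84). Cxcr6 had 411 CPM against 150 CPM, a ratio of 2.75 (2.15 to 3.53), Cxcr3 had a ratio of 2.53 (1.79 to 3.59), and Ly6c2 had 1338 CPM against 631 CPM, a ratio of 2.12 (1.87 to 2.40). The naive, memory and bystander lists had medians of 1.06, 1.16 and 1.36 without the Cd74 cells, with members on both sides of 1. Tcf7 was at a ratio of 2.30 (1.49 to 3.58), though its sign turned when cells were thinned to 2000 UMIs, and Ccr7 was at 0.418 (0.166 to 0.929). Of the bystander receptors, Klrk1 was at 1.54 (1.16 to 2.05), Cd7 at 1.67 (1.17 to 2.39) and Fcer1g at 0.928 (0.622 to 1.37). Cell cycle genes had a median of 0.501 over all cells, with 7 of 15 past 2-fold lower where 4.52% of genes were, and 0.659 without the Cd74 cells, with 3 lower beside 4.53%. That median was 0.031 on the log2 scale at an interferon limit of 5 UMIs, so its direction depended on the limit. Pcna, a clamp of DNA replication, was lower at 73.1 CPM against 193 CPM.

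The members were of unlike kinds, by limits set after values were seen. Beside the 13 Cd74 cells there were 6 cells with dsRed or Xist, with a median of 23690.5 UMIs and 11.0% of all UMIs. There were also 10 dividing cells, with 500 CPM or more of Mki67, Top2a and Birc5 together. They had a median of 28891.5 UMIs and 27.0% of all UMIs. Cd74 cells and dsRed or Xist cells over the limit of 500 CPM stayed in those groups, where the highest had 1000 and 3129 CPM. The 97 other cells had a median of 5659 UMIs and held 39.2%. Against 52 checkpoint-high cells under the same limits, the 97 other cells had a median ratio of 8.29 for 7 naive genes, 6 past 2-fold higher where 6.48% of 4581 genes were, and 2.24 for 13 memory genes, 8 higher and 2 lower. Bystander receptors had a median of 0.637, with 5 of 14 lower where 8.82% of genes were, and glycolysis genes a median of 0.339, with 9 of 11 lower. The glycolysis median was 0.706 in the 113 against 91 cells.

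In these cells Tcf7 had 139 CPM in 46 of 97 checkpoint-low cells and 6.13 CPM in 2 of 52 checkpoint-high cells, a ratio of 22.7 (8.53 to 85.3). Itgb7 had 299 CPM against 26.0 CPM, a ratio of 11.5 (6.96 to 20.1), and Cd7 had 170 CPM against 23.0 CPM, a ratio of 7.40 (4.27 to 13.7). Gzmb had 283 CPM against 1923 CPM, a ratio of 0.147 (0.124 to 0.173). Eomes, Bcl2 and Slamf6 had ratios of 2.17 (1.37 to 3.49), 2.68 (1.70 to 4.33) and 2.24 (1.24 to 4.19).

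Naive transcripts were too sparse to sort the cells. After thinning to 1000 UMIs, 64 of the 97 other cells had no UMI of Tcf7, Lef1, Ccr7, S1pr1 and Il7r, 24 had 1, 4 had 2 and 5 had 3 or more. The 33 cells with such UMIs had Ccl5 at 0 to 37567 CPM with a median of 10775 CPM, and the 64 without at 0 to 35970 CPM with a median of 9374 CPM. Ly6c2 had medians of 1070.3 CPM in the 33 cells and 1210.2 CPM in the 64. Since 24 of the 33 cells rest on 1 UMI, these groups are barely separated. The cell with the highest level of the whole naive list among the 97, at 4452 CPM of 5616 UMIs, had none of the 5 genes after thinning and no Ccl5 UMI.

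Splitting all 126 cells at 2 Ccl5 UMIs after thinning gave 27 Ccl5-low cells, with 50.7% of the UMIs, and 99 Ccl5-high cells. In Ccl5-low cells the naive list had a median ratio of 0.503, with 4 of 9 past 2-fold lower where 7.22% of 5419 genes were, and of 0.353 without the Cd74 cells, with 5 of 9 lower beside 11.9%. The naive value over all cells depended on the weight of deep cells, since the median log2 ratio was -0.12 when each cell's CPM counted equally, beside -0.99 for summed UMIs. Cell cycle genes were higher, with a median of 3.29 and 14 of 15 past 2-fold where 12.5% of genes were. Without the Cd74 cells 14 of 15 were past 2-fold again, with a median of 3.40, beside 17.8% of genes. Over all cells, memory, bystander and type I interferon genes had medians of 0.638, 0.429 and 0.443. The interferon median, -1.17 on the log2 scale, was -1.77 without the Cd74 cells. It was -0.35 without Cd74, dsRed or Xist and dividing cells. Without the Cd74 cells, Il7r had 8.56 CPM in Ccl5-low and 171 CPM in Ccl5-high cells, a ratio of 0.0502 (0.0159 to 0.121), and Hcst had 147 CPM against 963 CPM. Tpi1, an enzyme of glycolysis, had 647 CPM against 119 CPM, a ratio of 5.44 (4.19 to 7.16).

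Among the 97 other cells only 10 were Ccl5-low. Their naive list had a median ratio of 0.539 over 6 genes, 1 past 2-fold higher and 3 lower, where 5.5% and 11.2% of 2529 genes were, and their bystander receptors a median of 0.335, with 7 of 10 lower. Tcf7 had 167 CPM in 7 of the 10 Ccl5-low cells and 134 CPM in 39 of the 87 Ccl5-high cells, a ratio of 1.25 (0.660 to 2.21). Slamf6, a marker of stem-like cells, had 122 CPM against 50.7 CPM, a ratio of 2.41 (1.07 to 5.08), and Tox had 211 CPM against 73.1 CPM, a ratio of 2.89 (1.57 to 5.18). The deepest of the 10 cells held 22639 and 17592 of their 89914 UMIs. The deepest had 398 CPM of Mki67, Top2a and Birc5 together, under the limit of 500 CPM, and 16 UMIs of the Tcrg constant genes. Stmn1, Hmgb2, Tubb5 and Pcna of the cell cycle list had ratios of 30.8, 2.60, 1.70 and 1.07. The part of these deep cells was not tested. Il7r had no UMI in the 10 cells, where the floor of 3 counts stands at 33.4 CPM, against 187 CPM in the 87. Klrk1 had 44.5 CPM against 280 CPM, and Ccr2, a chemokine receptor for leaving blood, 44.5 CPM against 209 CPM.

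The 10 dividing cells differed from the 97 other cells beyond the cell cycle genes that chose them. All 7 naive genes compared were past 2-fold lower, with a median ratio of 0.179, where 13.1% of 4047 genes were. Il7r had 22.4 CPM against 158 CPM, Hcst 107 CPM against 944 CPM, and Ly6c2 452 CPM against 1423 CPM. Tcrg-C2, of the gamma delta T markers, had 77.3 CPM against 36.0 CPM, a ratio of 2.15 (1.19 to 3.93). Gzmb had 1068 CPM against 283 CPM, a ratio of 3.77 (3.14 to 4.54), Gzmk 481 CPM against 259 CPM, a ratio of 1.86 (1.49 to 2.31), and 7 of 10 glycolysis genes were past 2-fold higher, where 20% of genes were. The deepest dividing cell, of 109328 UMIs, had 3357 CPM of Cd74 and held 61.7% of their Gzmb UMIs. Without it Gzmb had 562 CPM, a ratio of 1.99 (1.59 to 2.48). Without it Gzmk had a ratio of 1.95, all 6 naive genes compared were past 2-fold lower beside 13.1% of 3685 genes, and 7 of 10 glycolysis genes past 2-fold higher beside 17.5%. Depth differed along with these values, at a median of 28891.5 UMIs in dividing and 5659 UMIs in other cells, and its part was not tested.

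**Figure D4:**
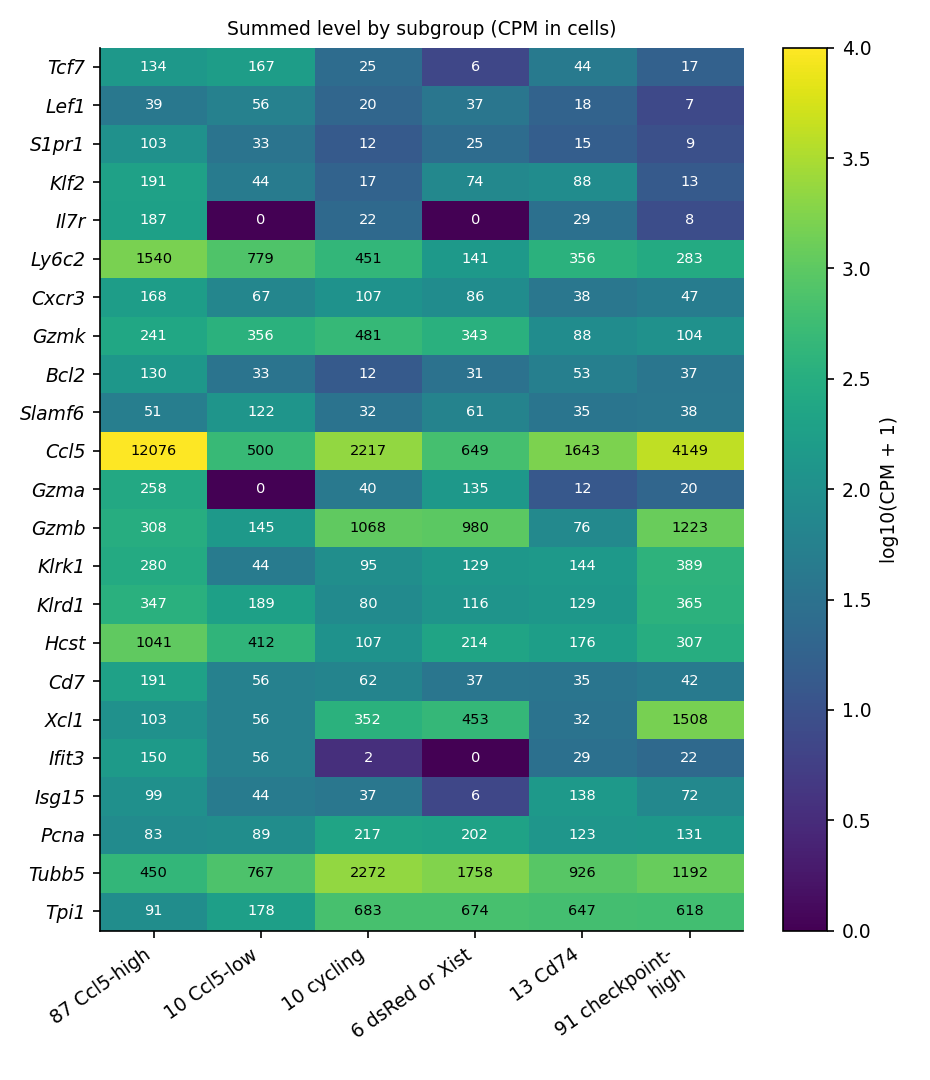
Each cell of the grid gives the summed CPM of a gene (rows) in a subgroup of checkpoint-low cells or in checkpoint-high cells (columns), coloured by log10 of CPM plus 1. Il7r stands at 187 CPM in the 87 Ccl5-high cells and at 0 in the 10 Ccl5-low cells, and Gzmb is highest in the checkpoint-high, dividing, and dsRed or Xist cells.

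Against 74 CD4 T cells without Foxp3, the nearest other T cells, the naive and memory lists had medians near 1. Without Cd74 cells these were 1.06 and 0.963, with 0 of 10 naive genes past 2-fold in either direction, where 4.83% and 6.12% of 5799 genes were higher and lower. With them both lists had medians of 1.06 and 1.02, beside 4.04% and 4.96% of 6731 genes past 2-fold higher and lower. Tcf7 had 80.2 CPM in checkpoint-low CD8 T cells and 81.0 CPM in CD4 T cells, a ratio of 0.990 (0.691 to 1.43), and Il7r 88.1 CPM against 86.1 CPM, a ratio of 1.02 (0.724 to 1.46). The CD8 T cells were set apart by Ccl5 at 6096 CPM against 785 CPM, Ly6c2 at 901 CPM against 125 CPM with a ratio of 7.21 (5.69 to 9.26), and Gzmk at 349 CPM against 6.75 CPM. Cd7 had a ratio of 5.17 (2.92 to 9.96). Il18r1 and Prf1 were lower, at ratios of 0.390 (0.290 to 0.523) and 0.405 (0.319 to 0.512), as were Tnfrsf4 at 0.0907 and Tnfsf8, the CD30 ligand, at 0.0292.

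Against 57 NK cells, which are known for the same innate receptors, 14 of 18 bystander receptors were past 2-fold lower, with a median of 0.213, and none higher, where 4.94% of 5481 genes were lower and 7.94% higher. Ncr1 and Klrb1c, which are among the 14, chose the NK cells and are no result. With the Cd74 cells the median was 0.218, with 15 of 18 lower, beside 3.96% of genes lower and 10.1% higher. Klrd1 had 208 CPM in checkpoint-low CD8 T cells and 1019 CPM in NK cells, a ratio of 0.204 (0.174 to 0.239), and Klrk1 a ratio of 0.222 (0.186 to 0.264). Gzma had 144 CPM against 1994 CPM, and Gzmc, a granzyme of activated killer cells, 2.62 CPM against 933 CPM. Cxcr6 had 249 CPM against 2.06 CPM, and Il7r 88.1 CPM against 10.3 CPM, a ratio of 8.55 (3.55 to 26.9). Ly6c2 had 901 CPM against 146 CPM, a ratio of 6.16 (4.84 to 7.95).

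A spatial barcode was given to a cell with at least 10 counts of ZC1, ZC2 or ZC3 and 2 times the next, or by a rule that scales each to its share in free barcodes and asks for 30 counts and 1.5 times the next. By counts, 50 of 126 checkpoint-low cells were assigned, 12 to ZC1 (24.0%), 11 to ZC2 and 27 to ZC3 (54.0%), against 1 (2.50%), 9 and 30 (75.0%) of 40 checkpoint-high cells. ZC3 was the barcode of 99.3% of 1406 C1q macrophages assigned by counts, and of 58.8% (55.8 to 61.7%) of 1128 assigned by the scaled rule. Scaled, 92 checkpoint-low cells were assigned, 48 to ZC1 (52.2%, 41.5 to 62.7%) and 16 to ZC3 (17.4%, 10.3 to 26.7%), against 12 to ZC1 (22.2%, 12.04 to 35.6%) and 22 to ZC3 (40.7%, 27.6 to 55.0%) of 54 checkpoint-high cells. Both rules thus gave checkpoint-low cells a larger ZC1 share and a smaller ZC3 share than checkpoint-high cells. Other lymphocytes were also placed there. Scaled, NK cells had 51.2% in ZC1 and 19.5% in ZC3 of 41 cells, and CD4 T cells 38.2% and 30.9% of 55. By counts, ZC1 and ZC3 each had 38.7% of 31 NK cells, and 17.9% and 71.8% of 39 CD4 T cells, so a high ZC1 share was not particular to checkpoint-low cells. Which tumour area each barcode marks is not stated in the labels.

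**Figure D5:**
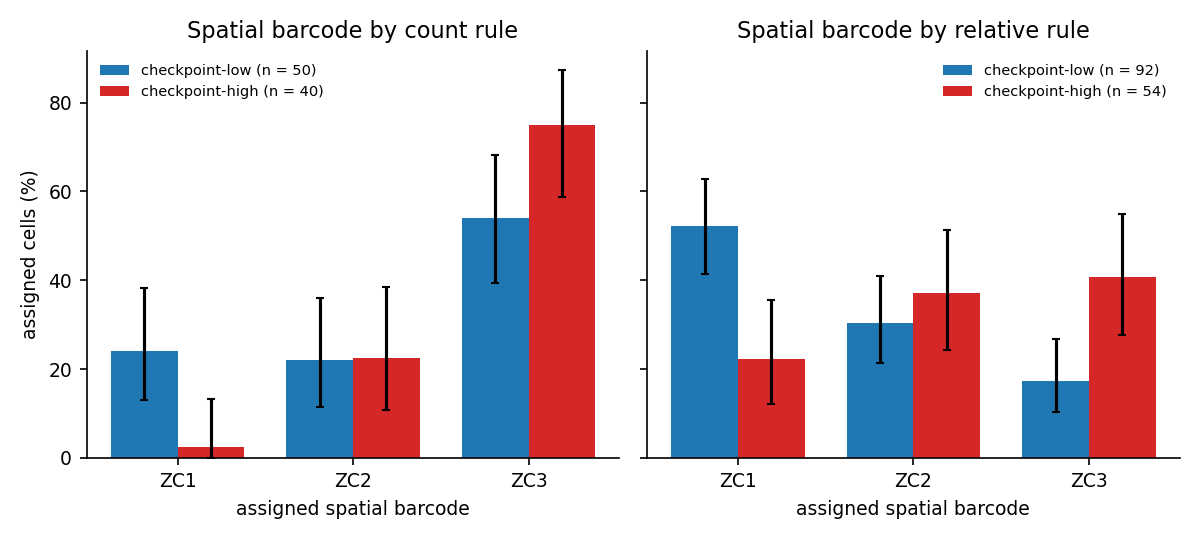
Bars give the percentage of assigned cells per spatial barcode in checkpoint-low (blue) and checkpoint-high (red) CD8 T cells, by the count rule (left) and the scaled rule (right), with exact 95% binomial intervals. The checkpoint-low bar is above the checkpoint-high bar for ZC1 and below it for ZC3 in both panels.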

How the data were processed

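Gene and spatial barcode UMI counts are as deposited, in 1 matrix of unfiltered barcodes for 2 libraries, and the submitters' processing notes name Cell Ranger 4.0.0 and mm10. Whether doublets were removed is not given in the sources used here, and no doublet caller was run. Cells of a set were summed, and levels are CPM of gene UMIs with exact Poisson intervals. Ratios have exact conditional binomial intervals at 95%, which cover counting error only. Comparison of a gene needed 30 UMIs in the pair of sets and 3 expected in each, and a set at 0 is given by its floor of 3 counts. CD4 cells had Cd3 and Cd4 but no Foxp3, NK cells had NK markers and at most 1 Cd3 UMI, and C1q macrophages had at least 5000 CPM of C1q genes. Shares of cells said to be thinned were taken after thinning each cell to 1000 UMIs. All other numbers and shares of cells with a UMI come from unthinned counts, at unequal depth. Named genes are those of the lists and the 12 highest and 12 lowest ratios among genes with at least 100 UMIs in 10% of cells. The members, lists and rule were chosen with earlier results of these data known. The limits of 5000 CPM for Cd74 and 500 CPM for Mki67, Top2a and Birc5 together were set after values were seen. A gene of the naive list is not reported here. With 1 library per set no test was possible. The intervals were tested on simulated data with counting error alone, which cannot show how they hold where cells differ. Scripts ran in Python 3.11.15 with pandas 2.3.3, scipy 1.17.1, matplotlib 3.10.9 and numpy 2.4.6.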

Additional observations from a re-analysis of the deposited data

How the results depend on the processing

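No paired analysis was possible because the library of gene counts was a single sample and no result comes from a test. Values here are log2 ratios over all cells unless said otherwise. Between checkpoint-low and checkpoint-high cells the naive (1.93), memory (0.51), bystander (-0.73), exhaustion (-0.91), cytokine (-2.41) and type I interferon (0.44) medians kept their sign in all settings tried. The naive and memory medians moved most without the Cd74, dsRed or Xist and dividing cells, to 3.05 and 1.16. The bystander median was -0.52 at a checkpoint limit of 250 CPM, -0.95 with each Cd8 gene required, -0.66 without the deepest 5% of cells, -0.57 as a mean of cells, -0.66 without Cd74 cells, -1.07 without dsRed or Xist cells, -0.66 without dividing cells and -0.65 without all of these. The cytokine median was -1.94 without the deepest 5%, -2.15 as a mean of cells, -2.76 with a minimum of 100 UMIs, -2.17 without Cd74 cells, -2.22 without dsRed or Xist cells, and -2.89 both without dividing cells and without all of these.

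Signs turned between these sets for Dapl1 (0.53 at a limit of 1000 CPM, 1.03 without dsRed or Xist cells), Ccl5 (-0.19) and Cd81 (0.077) without dsRed or Xist cells, Ccr7 (-0.18) and Cd8b1 (0.012) without Cd74 cells, and Il18r1 (0.40) without all of these. Against CD4 cells the cytotoxic median was -0.16 without Cd74 cells, and against NK cells -0.75 as a mean of cells. In the Ccl5 split the interferon median was -0.74 without the deepest 5%, -0.54 as a mean of cells, -1.77 without Cd74 cells and -0.35 without all of these, where Tcf7 turned to 0.32. The naive median there was -0.12 as a mean of cells and the bystander median -2.04 without the deepest 5%.

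The interferon split was the least stable. Its cell cycle median was -1.39 at a limit of 250 CPM, -1.49 without the deepest 5%, -0.27 with another thinning seed, -0.43 thinned to 2000 UMIs, 0.031 at an interferon limit of 5 UMIs and -0.60 without Cd74 cells. Its homing median was 0.45 at 1000 CPM, 0.26 without the deepest 5%, 0.14 as a mean of cells, 0.12 with another seed, 0.33 at 2000 UMIs, 0.20 at the limit of 5 UMIs, 0.40 without Cd74 cells and 0.088 without all of these. Xcl1 turned to 0.51 at 250 CPM, 0.028 as a mean of cells and 1.73 without all of these, and Tcf7 to -0.10 at 2000 UMIs. Settings that leave out Cd74, dsRed or Xist, dividing or single cells were chosen after seeing the data, and the cause of each shift was not tested. With a median of 6152 UMIs a cell, absence of a transcript in a cell does not show that the gene is off.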

Other observations

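Gzma marked a few unlike cells among the checkpoint-low set. Of the 97 other cells, 1 cell of 3963 UMIs had 9841 CPM of Gzma with 27252 CPM of Ccl5 and 14635 CPM of the bystander list, the highest of the 97. The same cell had the highest NK marker sum of the 113, at 12869 CPM with Gzma counted in it, 2271 CPM of Klra7, 4794 CPM of the CD3 genes and 505 CPM of the CD8 genes. Another, of 6156 UMIs, had 8285 CPM of Gzma, 24204 CPM of Ccl5, 9747 CPM of NK markers and 4711 CPM of the CD3 genes. Whether either barcode also held RNA of an NK cell was not tested. T cell receptor V genes were nearly unread by this assay: Trbv genes had 11 UMIs in 9 checkpoint-low cells, 6 of them of Trbv12-2, and 11 UMIs in 8 checkpoint-high cells, 8 of them of Trbv12-2.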
